A study of Mus musculus with 12 samples.

Results

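A set of 40 extracellular matrix and fibrogenic genes was examined in mouse liver: 5 fibrillar collagen chains, 4 other interstitial collagen chains, 8 basement membrane genes, 6 elastic fibre and adhesive glycoproteins, 3 small proteoglycans, 7 matricellular proteins, 3 crosslinking enzymes and 4 TGF-beta factors. The genes were taken from a list of names rather than by a threshold on their values. That list was chosen with earlier results of these data known, so its shares beside those of all tested genes are descriptive. Each gene was read from the transcript cluster (the array's probe set for a transcript) that is annotated to that gene alone. Of the 40 genes, 38 had such a cluster and all 38 passed the filter on low signal, among 19938 genes with a cluster and 13977 tested. Loxl2 shared its cluster with another gene, and Fbn1 was not analysed here. Transcript levels were measured on 12 Affymetrix mouse Gene 1.0 ST arrays in total RNA of whole liver from mice aged 2 weeks. The 4 genotypes were Stat3Fl/Fl, with floxed Stat3 alleles; Stat3Δhc, in which Stat3 was deleted; Stat3Fl/Fl Mdr2-/-, floxed Stat3 on the Mdr2 knockout; and Stat3Δhc Mdr2-/-, both deletions together. Each genotype had 3 arrays, called A, B and C, and no group without the floxed or deleted Stat3 allele was analysed here. The labels name no Cre driver and do not say whether an array is 1 animal, so the p-values measure the spread between arrays. Per the design text of the series, the start of fibrosis and the levels of fibrogenic genes were examined so that differences in cell makeup would not be read as differences in regulation.

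The extracellular matrix of liver is made mostly by hepatic stellate cells and portal fibroblasts, while hepatocytes secrete plasma fibronectin and several other matrix glycoproteins. Fibrillar collagens form the scar in fibrosis, and laminins, type IV collagen and nidogen form the basement membranes of ducts and vessels. TGF-beta, released from a latent complex, is the best known inducer of collagen synthesis. Mdr2, encoded by Abcb4, carries phospholipid into bile. Mice without it develop bile duct injury and biliary fibrosis. Stat3 carries signals of interleukin 6 and related cytokines.

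All values are log2 signals after RMA (background correction, quantile normalisation and probe set summary), so a difference of 1 is a doubling of signal, and levels are compared within a gene only. The genotypes followed the sample titles in 12 of 12 arrays: Stat3 ran from 9.19 to 9.54 where it was floxed and from 7.69 to 8.12 where it was deleted, and Abcb4 ran from 10 to 10.28 without the Mdr2 knockout and from 8.87 to 9.36 with it. The 3 Stat3Fl/Fl Mdr2-/- arrays and Stat3Δhc Mdr2-/- array A had high Xist and low Y-linked transcripts, and the other 8 arrays had the opposite pattern. The 15 skeletal muscle markers averaged 8.08 to 8.91 per array without the Mdr2 knockout and 5.41 to 5.84 with it, and exocrine pancreas markers averaged 5.63 to 10.29 without it and 5.45 to 5.81 with it. In whole tissue, fewer cells of a type and less RNA per cell cannot be told apart.

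With Mdr2 loss, 5 matrix genes were higher in both Stat3 backgrounds, Nid1, Lum, Bgn, Ccn1 and Ccn2, and 3 were lower, Ecm1, Lamb1 and Postn. In Stat3Fl/Fl liver the Mdr2 comparison coincides with the Xist pattern, and 0 of these genes passed there with that pattern as a covariate. Type I and type III collagen rose with Mdr2 loss in Stat3Δhc liver and did not pass in Stat3Fl/Fl liver, and the difference between the backgrounds passed for 0 of their 3 chains. A gene was called where limma's moderated test gave an adjusted p under 0.05 over all tested genes. In Stat3Fl/Fl liver, 10 of 38 members were called (26.3%, against 12.8% of all tested genes), 5 higher (background 7.12%) and 5 lower (background 5.65%). In Stat3Δhc liver, 15 of 38 were called (39.5%, against 17.4%), 9 higher (background 6.9%) and 6 lower (background 10.5%). The 5 higher genes shared by both backgrounds were 5 of 5 risers in Stat3Fl/Fl liver and 5 of 9 in Stat3Δhc liver, and the 3 shared lower genes were 3 of 5 and 3 of 6. The median log2 change of the 38 members was -0.02 in Stat3Fl/Fl liver and 0.06 in Stat3Δhc liver, beside 0.00 and -0.02 for all tested genes. The values of the Mdr2 knockout and comparison arrays did not overlap for 17 members in Stat3Fl/Fl liver (44.7%, against 33.3% of all tested genes) and for 20 in Stat3Δhc liver (52.6%, against 37.2%). With the Xist pattern as a covariate, 0 of the 10 calls in Stat3Fl/Fl liver remained (adjusted p 0.1 to 0.786), and 12 of the 15 in Stat3Δhc liver did. All 10 and all 15 changes kept their sign. The count in Stat3Fl/Fl liver was 5 without Stat3Fl/Fl B or Stat3Fl/Fl Mdr2-/- C, and 6 without Stat3Fl/Fl A or C. After cyclic loess scaling the calls in Stat3Δhc liver numbered 16, with 12 higher and 4 lower, and after median centring 14, with 7 higher and 7 lower. In Stat3Fl/Fl liver, the knockout arrays have the Xist pattern and the comparison arrays have the Y-linked pattern, so pattern and knockout are separated only through the Stat3Δhc arrays, and the median standard error of the members rose from 0.107 to 0.186.

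Stat3 deletion lowered matrix genes more often than it raised them. Without the Mdr2 knockout, 4 of 38 members were called (10.5%, against 2.58% of all tested genes): Col1a1, Col1a2 and Fn1 fell (3, background 1.07%) and Efemp1 rose (1, background 1.51%). At an unadjusted p under 0.05 the count was 17 of 38 (44.7%, against 16.4%), 15 of them lower, and the median log2 change was -0.18, beside -0.01 for all tested genes. On the Mdr2 knockout, 6 of 38 were called (15.8%, against 5.77%), 6 lower (background 3.9%) and 0 higher (background 1.87%): Ecm1, Postn, Lamc1, Fn1, Efemp1 and Eln. The median log2 change was -0.09, beside -0.03 for all tested genes. The values of the Stat3Δhc and Stat3Fl/Fl arrays did not overlap for 17 members without the Mdr2 knockout (44.7%, against 25.1% of all tested genes) and for 14 on it (36.8%, against 28.6%). All 6 arrays without the Mdr2 knockout have the same Xist pattern, and the covariate kept all 4 calls there. Without the knockout, the count was 0 when Stat3Fl/Fl B, Stat3Fl/Fl C, Stat3Δhc B or Stat3Δhc C was left out, 1 without Stat3Δhc A and 8 without Stat3Fl/Fl A. The covariate kept 0 of the 6 calls on the knockout (adjusted p 0.0537 to 0.381), where the signs stayed the same and the median standard error rose to 0.146. The effect of Stat3 deletion differed between the 2 Mdr2 backgrounds for 2 members (5.26%, against 0.0715% of all tested genes), Ecm1 and Efemp1, both with a negative difference (background 0.0572% negative and 0.0143% positive). That count was 0 without Stat3Δhc A, B or C, Stat3Fl/Fl B or C, Stat3Fl/Fl Mdr2-/- A or Stat3Δhc Mdr2-/- B, and 3 without Stat3Fl/Fl A. The Stat3 comparisons and the Mdr2 comparisons are built from the same arrays and are not independent of each other.

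**Figure D1:**
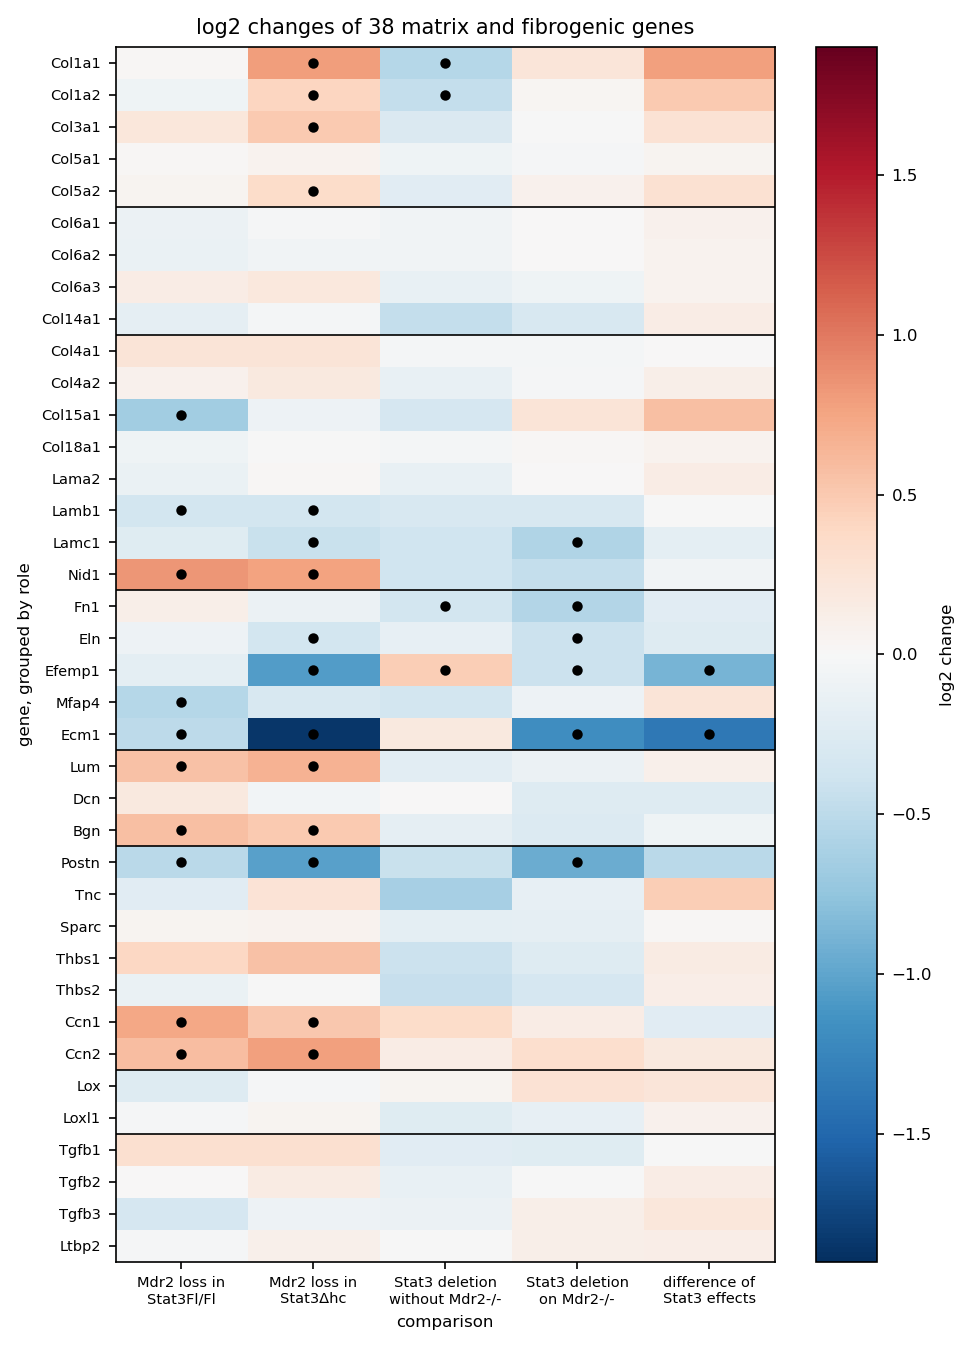
Log2 change of each of the 38 measured members (rows, grouped by role) in the 5 comparisons (columns), with colour for the size and direction of the change and a mark where limma's adjusted p was under 0.05. The largest fall is that of Ecm1 with Mdr2 loss in Stat3Δhc liver (-1.85), and the rows of other interstitial collagens, crosslinkers and TGF-beta factors carry 0 marks.

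The chains of type I collagen, the main collagen of scar, were lowest in Stat3Δhc liver and reached the level of floxed liver or above it once Mdr2 was lost too. Col1a1 read 10.49, 10.97 and 10.66 in the Stat3Fl/Fl arrays, 10.19, 10.09 and 10.22 in the Stat3Δhc arrays, 10.55, 10.72 and 10.90 in the Stat3Fl/Fl Mdr2-/- arrays and 10.98, 10.97 and 10.94 in the Stat3Δhc Mdr2-/- arrays (arrays A, B and C in turn). The Stat3Δhc arrays lay below the 9 other arrays, and the Stat3Δhc Mdr2-/- arrays lay highest among the Mdr2-/- arrays. Skeletal muscle markers averaged 8.11, 8.91 and 8.37 in Stat3Fl/Fl arrays A, B and C and 8.43, 8.08 and 8.57 in the Stat3Δhc arrays. In the Mdr2-/- arrays they averaged 5.41 to 5.84. The part of other tissue in the type I collagen values was not tested. Col1a1 fell 1.46-fold with Stat3 deletion alone (log2 change -0.54, SE 0.12, adjusted p = 0.0317) and was 1.74-fold higher with Mdr2 loss in Stat3Δhc liver (log2 change 0.80, SE 0.12, adjusted p = 0.000886). In Stat3Fl/Fl liver the same change was 0.02 (95% confidence interval -0.24 to 0.27, adjusted p = 0.946). The difference between the Mdr2 effects, 0.78 with a 95% interval from 0.42 to 1.14, did not pass the test over all genes (adjusted p = 0.111). It passed without Stat3Fl/Fl A (0.89, adjusted p = 0.0404) and with array weights (0.77, adjusted p = 0.0179). In the array weight fit Stat3Δhc A alone had a weight of 9.01, and the other arrays had 0.26 to 2.86.

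The Col1a2 signal was 10.01, 10.39 and 10.20 in Stat3Fl/Fl, 9.75, 9.68 and 9.79 in Stat3Δhc, 9.97, 10.17 and 10.20 in Stat3Fl/Fl Mdr2-/- and 10.16, 10.17 and 10.12 in Stat3Δhc Mdr2-/- liver. As for Col1a1, the Stat3Δhc arrays lay below all others. Col1a2, the partner chain of type I collagen, fell 1.37-fold with Stat3 deletion (log2 change -0.46, SE 0.10, adjusted p = 0.0316) and was 1.33-fold higher with Mdr2 loss in Stat3Δhc liver (log2 change 0.41, SE 0.10, adjusted p = 0.0153). The calls for lower Col1a1 and Col1a2 were both lost without Stat3Δhc A, B or C or Stat3Fl/Fl B or C, with adjusted p 0.0747 to 0.143 for Col1a1 and 0.0747 to 0.156 for Col1a2. The difference between the Mdr2 effects on Col1a2 was 0.49 (adjusted p = 0.224). With array weights, where Stat3Δhc A had a weight of 9.01, it passed (0.51, adjusted p = 0.0337).

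The Col3a1 signal was 10.48, 10.76 and 10.63 in Stat3Fl/Fl, 10.39, 10.31 and 10.33 in Stat3Δhc, 10.82, 10.82 and 10.88 in Stat3Fl/Fl Mdr2-/- and 10.90, 10.89 and 10.70 in Stat3Δhc Mdr2-/- liver. The 6 Mdr2-/- arrays ran higher than the arrays of their own Stat3 background, with no overlap in either background. Col3a1, which forms thinner fibrils together with type I collagen, rose 1.41-fold in Stat3Δhc liver (log2 change 0.49, SE 0.09, adjusted p = 0.00287), and the change of 0.21 in Stat3Fl/Fl liver did not pass (adjusted p = 0.143). With Stat3 deletion alone the Col3a1 change was -0.28 (adjusted p = 0.117), which passed without Stat3Fl/Fl A (-0.35, adjusted p = 0.0481). It also passed with array weights, where Stat3Δhc A had a weight of 9.01 (-0.26, adjusted p = 0.00959). The difference between the Mdr2 effects was 0.28 (adjusted p = 0.288). The Col5a2 signal was 7.35, 7.53 and 7.44 in Stat3Fl/Fl, 7.15, 7.10 and 7.43 in Stat3Δhc, 7.37, 7.47 and 7.64 in Stat3Fl/Fl Mdr2-/- and 7.69, 7.54 and 7.49 in Stat3Δhc Mdr2-/- liver. Col5a2, a chain of the type V collagen that starts fibril assembly, rose 1.27-fold in Stat3Δhc liver (log2 change 0.35, SE 0.11, adjusted p = 0.043), where the groups did not overlap. Col3a1 and Col5a2 are neighbours in the genome, with 0 coding genes between them. The Col5a2 call was lost without Stat3Δhc A or B, Stat3Fl/Fl B or C, Stat3Fl/Fl Mdr2-/- B or Stat3Δhc Mdr2-/- A, B or C (adjusted p 0.052 to 0.135). Col5a1, the other type V chain, stayed between 7.75 and 7.97 in all 12 arrays and passed in 0 comparisons.

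**Figure D2:**
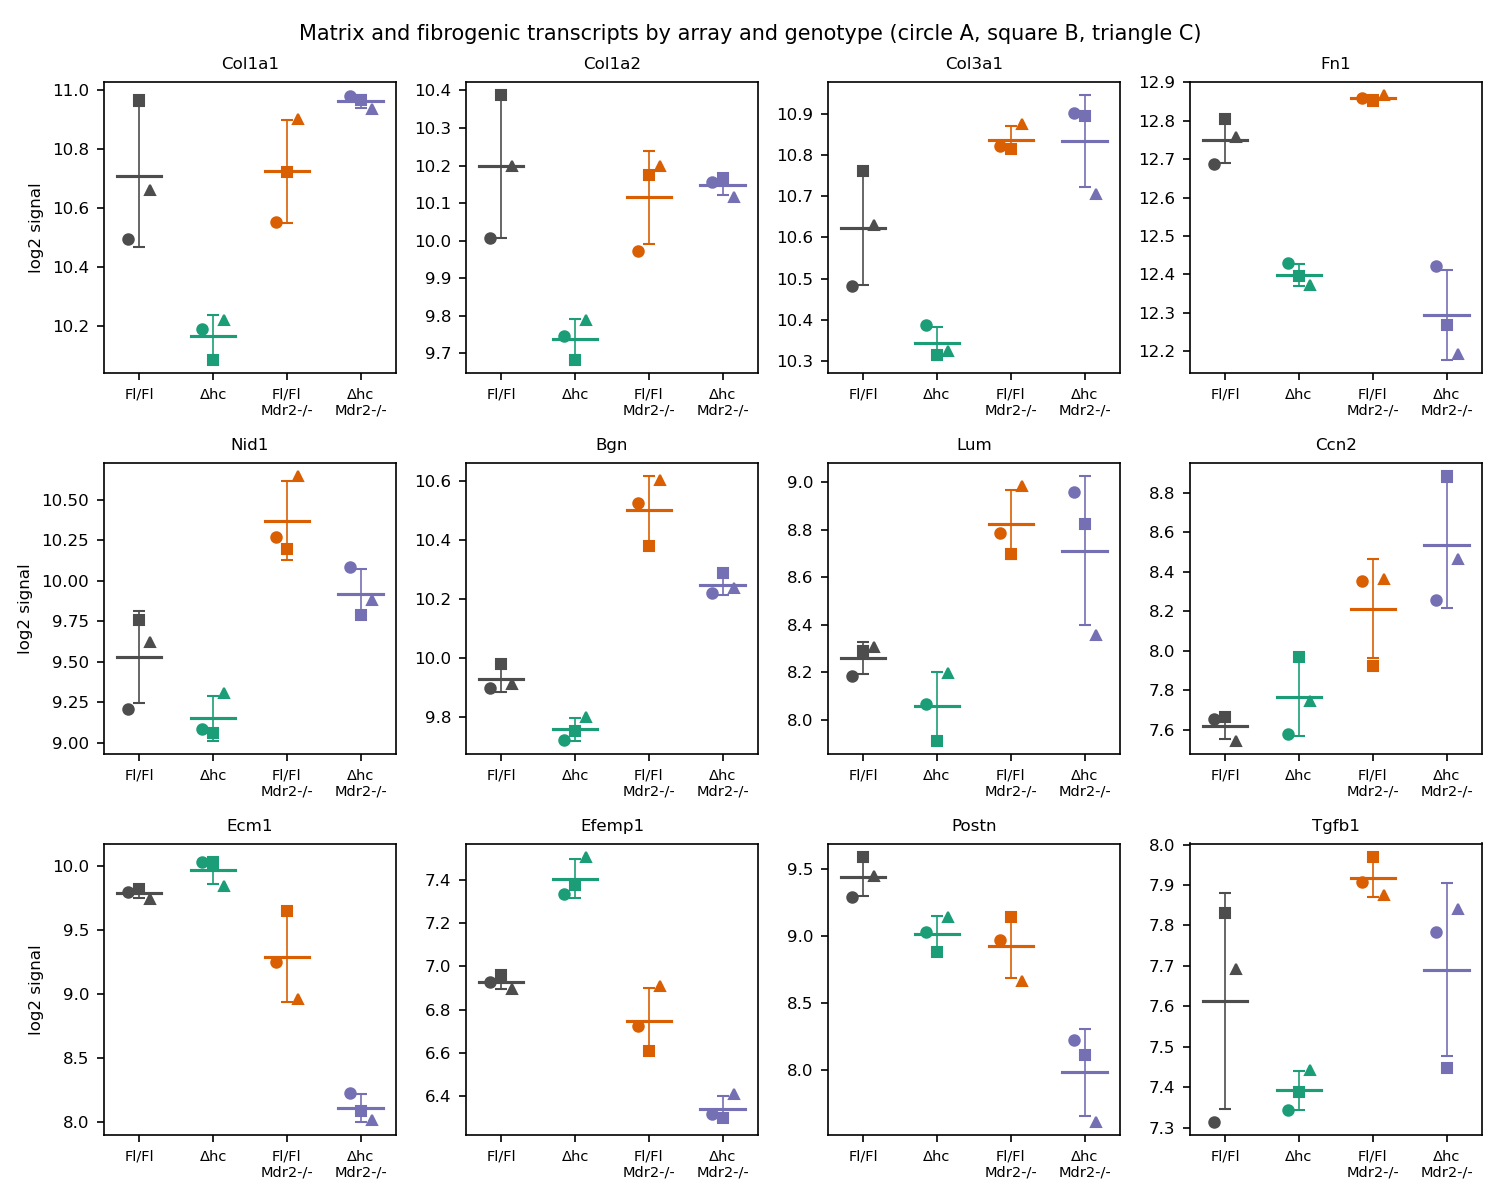
Log2 signal of 12 members in each of the 12 arrays, 1 panel per gene, with the 4 genotypes on the x axis, a point per array, a horizontal bar at the genotype mean and a vertical bar for the SD of the 3 arrays. The 3 Stat3Δhc points lie below the others for Col1a1 and Col1a2, and the 3 Stat3Δhc Mdr2-/- points lie below the others for Ecm1 and Postn.

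Among the other interstitial collagens, 0 of 4 genes were called in any comparison (against 0.0715% to 17.4% of all tested genes, by comparison). The 3 chains of type VI collagen, which forms beaded filaments around cells, had narrow ranges: Col6a1 spanned 7.94 to 8.21 over the 12 arrays, Col6a2 7.53 to 7.94 and Col6a3 7.98 to 8.49, and their largest log2 change in any comparison was 0.20. Col14a1, a collagen that binds the surface of fibrils, spanned 9.92 to 10.71. Its change with Stat3 deletion without the Mdr2 knockout was -0.45 (adjusted p = 0.0526), next to the threshold, and it passed under the 60th percentile filter, cyclic loess, array weights, trend and robust eBayes and the Xist covariate.

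Of 8 basement membrane genes, Nid1 rose and Lamb1 fell with Mdr2 loss in both Stat3 backgrounds, Col15a1 fell in Stat3Fl/Fl liver and Lamc1 fell in Stat3Δhc liver. The Nid1 signal was 9.21, 9.76 and 9.62 in Stat3Fl/Fl, 9.08, 9.06 and 9.31 in Stat3Δhc, 10.27, 10.20 and 10.65 in Stat3Fl/Fl Mdr2-/- and 10.09, 9.79 and 9.88 in Stat3Δhc Mdr2-/- liver. Each Mdr2-/- array lay above all 6 arrays without the knockout. Nid1, the linker between laminin and type IV collagen networks, rose 1.79-fold in Stat3Fl/Fl liver (log2 change 0.84, SE 0.15, adjusted p = 0.0034) and 1.7-fold in Stat3Δhc liver (log2 change 0.77, SE 0.15, adjusted p = 0.00488). The Nid1 call in Stat3Fl/Fl liver was lost with the Xist pattern as a covariate (adjusted p = 0.445). The Stat3Δhc Mdr2-/- arrays lay below the Stat3Fl/Fl Mdr2-/- arrays, and this difference of -0.45 did not pass (adjusted p = 0.0867).

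The Lamb1 signal was 8.49, 8.76 and 8.57 in Stat3Fl/Fl, 8.31, 8.16 and 8.45 in Stat3Δhc, 8.35, 8.27 and 8.17 in Stat3Fl/Fl Mdr2-/- and 7.97, 7.99 and 7.91 in Stat3Δhc Mdr2-/- liver. In both backgrounds the Mdr2-/- arrays lay below the arrays without the knockout. Lamb1, the beta 1 chain of laminin, fell 1.27-fold in Stat3Fl/Fl liver (log2 change -0.35, SE 0.10, adjusted p = 0.0346) and 1.28-fold in Stat3Δhc liver (log2 change -0.35, SE 0.10, adjusted p = 0.0276). The Lamc1 signal was 8.93, 9.19 and 9.14 in Stat3Fl/Fl, 8.74, 8.44 and 8.93 in Stat3Δhc, 8.88, 8.89 and 8.79 in Stat3Fl/Fl Mdr2-/- and 8.42, 8.25 and 8.19 in Stat3Δhc Mdr2-/- liver. The Stat3Δhc Mdr2-/- arrays were lowest, and the lowest Stat3Δhc array lay just above them. Lamc1, the gamma 1 chain that pairs with beta 1 in most laminins, fell 1.33-fold with Mdr2 loss in Stat3Δhc liver (log2 change -0.42, SE 0.12, adjusted p = 0.0316) and 1.48-fold with Stat3 deletion in Mdr2-/- mice (log2 change -0.57, SE 0.12, adjusted p = 0.0184). The Lamb1 call in Stat3Fl/Fl liver was lost without Stat3Δhc A, Stat3Fl/Fl B or C or Stat3Fl/Fl Mdr2-/- B or C (adjusted p 0.0536 to 0.143), and in Stat3Δhc liver without Stat3Δhc A or C or Stat3Δhc Mdr2-/- C (adjusted p 0.0762 to 0.122). The Lamc1 calls were lost without Stat3Δhc A or C or Stat3Δhc Mdr2-/- B or C (adjusted p 0.0746 to 0.141) for Mdr2 loss, and without Stat3Fl/Fl Mdr2-/- B or Stat3Δhc Mdr2-/- B or C (adjusted p 0.0548 to 0.0649) for Stat3 deletion.

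The Col15a1 signal was 7.18, 7.48 and 7.15 in Stat3Fl/Fl, 6.81, 7.0 and 7.03 in Stat3Δhc, 6.69, 6.58 and 6.57 in Stat3Fl/Fl Mdr2-/- and 6.68, 6.95 and 6.94 in Stat3Δhc Mdr2-/- liver. The Stat3Fl/Fl arrays lay above the other 9, and the fall with Mdr2 loss in Stat3Fl/Fl liver was 1.57-fold (log2 change -0.66, SE 0.11, adjusted p = 0.00219). Col15a1 encodes a basement membrane collagen that is also made in muscle and vessels, and 15 of 15 skeletal muscle markers fell in the same comparison (median log2 change -3.23). The Col15a1 change was -0.39 (adjusted p = 0.458) with the Xist pattern as a covariate. In Stat3Δhc liver it was -0.09 (adjusted p = 0.572), with overlapping groups, and 14 of 15 muscle markers fell (median -3.01). The part of muscle transcripts in the Col15a1 values of either background was not tested. The type IV collagen chains Col4a1 (8.41 to 8.89) and Col4a2 (8.21 to 8.62), which lie next to each other in the genome, passed in 0 comparisons, as did Col18a1 (9.98 to 10.34), a collagen made by hepatocytes, and Lama2 (7.29 to 7.71), the laminin alpha 2 chain of muscle.

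The elastic fibre and adhesive glycoproteins held the largest changes of all members, those of Ecm1 and Efemp1. The RefSeq sequences (GRCm38.p6) of the 250 bases upstream of their start sites are shown because these 2 members passed the test of a different Stat3 effect with and without Mdr2, and that of Col1a2 because type I collagen fell with Stat3 deletion. In Ecm1 the capitals mark TATAAA, which is the usual core promoter box, followed by the SMAD binding string CAGACA. In Efemp1 they mark TTCNNNNGAA, a wide form of the STAT string, and in Col1a2 the SMAD string. The first lies at chr3:95739570-95739819 on the minus strand, the second at chr11:28852955-28853204 and the third at chr6:4505368-4505617, both on the plus strand.
Ecm1: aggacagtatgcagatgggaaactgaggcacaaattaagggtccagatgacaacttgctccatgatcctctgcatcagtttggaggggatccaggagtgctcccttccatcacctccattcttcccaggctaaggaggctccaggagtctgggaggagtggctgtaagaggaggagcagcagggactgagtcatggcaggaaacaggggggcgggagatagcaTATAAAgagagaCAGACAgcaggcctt
Efemp1: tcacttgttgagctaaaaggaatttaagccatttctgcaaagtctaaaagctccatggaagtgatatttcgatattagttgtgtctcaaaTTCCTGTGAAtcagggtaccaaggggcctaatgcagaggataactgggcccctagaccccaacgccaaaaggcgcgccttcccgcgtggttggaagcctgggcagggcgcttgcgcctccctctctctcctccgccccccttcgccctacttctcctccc
Col1a2: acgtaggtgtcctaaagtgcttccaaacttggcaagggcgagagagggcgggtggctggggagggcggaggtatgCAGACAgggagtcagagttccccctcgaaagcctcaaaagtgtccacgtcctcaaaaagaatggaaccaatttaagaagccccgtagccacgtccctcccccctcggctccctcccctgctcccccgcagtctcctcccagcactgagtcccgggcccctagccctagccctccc

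For 25 members, 29 promoters were matched, and 4 strings were searched on both strands of the 250 upstream bases. A member was counted if any of its promoters held the string, while the background counts single promoters. TTCNNNGAA, the usual STAT string, was in 0 of the 25 and in 7.02% of all 32851 promoters of the same length. TTCNNNNGAA was in 2, Bgn and Efemp1, and in 5.85% of all promoters. CAGACA was in 9 and in 17.1%, and TATAAA in 7 and in 12.4%. A match is a description of the letters in this window.

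The Ecm1 signal was 9.80, 9.82 and 9.74 in Stat3Fl/Fl, 10.03, 10.02 and 9.84 in Stat3Δhc, 9.25, 9.65 and 8.96 in Stat3Fl/Fl Mdr2-/- and 8.23, 8.09 and 8.02 in Stat3Δhc Mdr2-/- liver. The Stat3Δhc arrays were highest and the Stat3Δhc Mdr2-/- arrays lowest, with no overlap between any pair of genotypes. Ecm1 encodes a secreted glycoprotein of hepatocytes, and in mice its loss has been linked to activation of latent TGF-beta. It fell 1.41-fold with Mdr2 loss in Stat3Fl/Fl liver (log2 change -0.50, SE 0.14, adjusted p = 0.032) and 3.61-fold in Stat3Δhc liver (log2 change -1.85, SE 0.14, adjusted p = 3.78e-06). Stat3 deletion in Mdr2-/- mice lowered it 2.25-fold (log2 change -1.17, SE 0.14, adjusted p = 0.00101), while without the knockout its change was 0.18 (adjusted p = 0.588). The difference of the Stat3 effects was -1.35 (SE 0.20, adjusted p = 0.038). That call was lost without Stat3Δhc A, B or C, Stat3Fl/Fl B or C, Stat3Fl/Fl Mdr2-/- A or Stat3Δhc Mdr2-/- B (adjusted p 0.0697 to 0.11), and the call in Stat3Fl/Fl liver without Stat3Fl/Fl A, B or C or Stat3Fl/Fl Mdr2-/- A or C (adjusted p 0.0727 to 0.123).

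The Efemp1 signal was 6.93, 6.96 and 6.90 in Stat3Fl/Fl, 7.33, 7.37 and 7.50 in Stat3Δhc, 6.73, 6.61 and 6.91 in Stat3Fl/Fl Mdr2-/- and 6.32, 6.30 and 6.41 in Stat3Δhc Mdr2-/- liver. Efemp1 was highest in Stat3Δhc liver and lowest in Stat3Δhc Mdr2-/- liver, and neither set of arrays overlapped any other genotype. Efemp1 encodes fibulin-3, a glycoprotein of elastic tissue. Stat3 deletion raised it 1.39-fold in mice with Mdr2 (log2 change 0.47, SE 0.09, adjusted p = 0.0165) and lowered it 1.33-fold on the knockout (log2 change -0.41, SE 0.09, adjusted p = 0.0215). The difference of these effects was -0.88 (SE 0.13, adjusted p = 0.038). Mdr2 loss in Stat3Δhc liver lowered it 2.09-fold (log2 change -1.06, SE 0.09, adjusted p = 9.46e-06), and in Stat3Fl/Fl liver the change was -0.18 (adjusted p = 0.227). The rise was lost without Stat3Δhc B or C or Stat3Fl/Fl B or C (adjusted p 0.0531 to 0.0953), the fall with Stat3 deletion without Stat3Fl/Fl Mdr2-/- C or Stat3Δhc Mdr2-/- B (adjusted p 0.0714 to 0.076), and the difference without Stat3Δhc A, B or C, Stat3Fl/Fl B or C, Stat3Fl/Fl Mdr2-/- A or Stat3Δhc Mdr2-/- B (adjusted p 0.075 to 0.11).

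**Figure D3:**
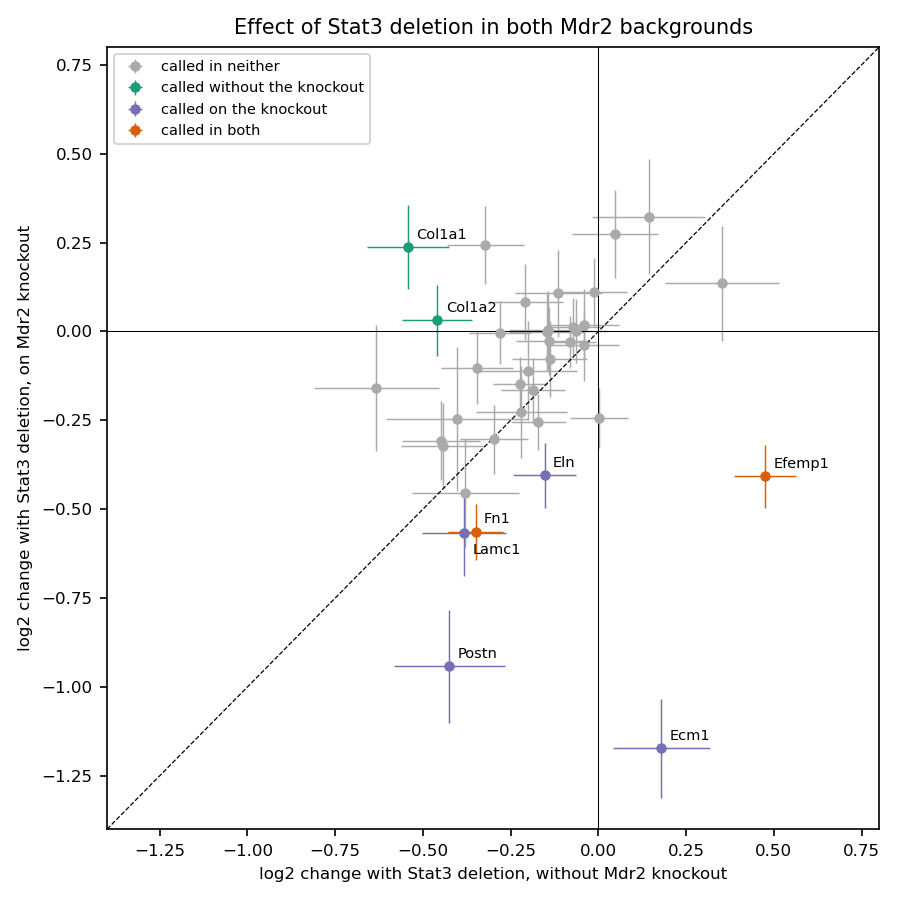
Log2 change with Stat3 deletion without the Mdr2 knockout (x axis) against that on the Mdr2 knockout (y axis), a point for each of the 38 members. Bars show the standard error, the diagonal marks equal change, and named points are members called in either comparison. Efemp1 rises on the x axis (0.47) and falls on the y axis (-0.41), Ecm1 lies lowest (-1.17), and Col1a1 and Col1a2 fall on the x axis and lie near 0 or above on the y axis.

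The Fn1 signal was 12.69, 12.80 and 12.76 in Stat3Fl/Fl, 12.43, 12.40 and 12.37 in Stat3Δhc, 12.86, 12.85 and 12.87 in Stat3Fl/Fl Mdr2-/- and 12.42, 12.27 and 12.19 in Stat3Δhc Mdr2-/- liver. Fn1 was lower in the Stat3Δhc arrays than in the floxed arrays on both backgrounds, with no overlap. Fn1 encodes fibronectin, which hepatocytes secrete into plasma and which scaffolds collagen deposition. It fell 1.27-fold with Stat3 deletion alone (log2 change -0.35, SE 0.08, adjusted p = 0.0361) and 1.48-fold in Mdr2-/- mice (log2 change -0.56, SE 0.08, adjusted p = 0.00272), and it was the only member lowered past the test in both. The difference of -0.21 between these falls did not pass (adjusted p = 0.33). The first call was lost without Stat3Δhc A, B or C, Stat3Fl/Fl B or C or Stat3Fl/Fl Mdr2-/- B or C (adjusted p 0.0505 to 0.173).

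The Eln signal was 8.74, 9.02 and 8.84 in Stat3Fl/Fl, 8.66, 8.73 and 8.75 in Stat3Δhc, 8.85, 8.80 and 8.66 in Stat3Fl/Fl Mdr2-/- and 8.28, 8.44 and 8.37 in Stat3Δhc Mdr2-/- liver. The Stat3Δhc Mdr2-/- arrays were the 3 lowest. Eln, which encodes the elastin core of elastic fibres, fell 1.27-fold with Mdr2 loss in Stat3Δhc liver (log2 change -0.35, SE 0.09, adjusted p = 0.0209) and 1.32-fold with Stat3 deletion on the knockout (log2 change -0.40, SE 0.09, adjusted p = 0.0238). These calls were lost without Stat3Δhc C or Stat3Δhc Mdr2-/- A (adjusted p 0.0533 to 0.0764) for Mdr2 loss and without Stat3Fl/Fl Mdr2-/- A or B or Stat3Δhc Mdr2-/- C (adjusted p 0.0518 to 0.0815) for Stat3 deletion. The Mfap4 signal was 7.50, 7.68 and 7.50 in Stat3Fl/Fl, 7.23, 7.10 and 7.31 in Stat3Δhc, 7.22, 6.94 and 6.88 in Stat3Fl/Fl Mdr2-/- and 6.84, 6.99 and 6.91 in Stat3Δhc Mdr2-/- liver. The Stat3Fl/Fl arrays lay above the other 9. Mfap4, a microfibril-associated protein of vessel walls, fell 1.46-fold with Mdr2 loss in Stat3Fl/Fl liver (log2 change -0.55, SE 0.10, adjusted p = 0.00408). Among smooth muscle and myofibroblast markers, Acta2 (-0.87, adjusted p = 0.00665), Myh11 (-0.79, adjusted p = 0.0126) and Actg2 (-0.53, adjusted p = 0.0141) fell in the same comparison, 3 of 4 tested, and their part in the Mfap4 change was not tested.

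Of the small proteoglycans, which coat collagen fibrils and bind growth factors, Bgn and Lum rose with Mdr2 loss in both backgrounds. The Bgn signal was 9.90, 9.98 and 9.91 in Stat3Fl/Fl, 9.72, 9.75 and 9.80 in Stat3Δhc, 10.53, 10.38 and 10.61 in Stat3Fl/Fl Mdr2-/- and 10.22, 10.29 and 10.24 in Stat3Δhc Mdr2-/- liver. All 6 Mdr2-/- arrays lay above the 6 arrays without the knockout. Bgn, which encodes biglycan, rose 1.49-fold in Stat3Fl/Fl liver (log2 change 0.57, SE 0.08, adjusted p = 0.000597) and 1.41-fold in Stat3Δhc liver (log2 change 0.49, SE 0.08, adjusted p = 0.00137). Bgn lies on the X chromosome. With the Xist pattern as a covariate its changes were 0.61 (adjusted p = 0.1) and 0.50 (adjusted p = 0.00436). The Lum signal was 8.18, 8.29 and 8.31 in Stat3Fl/Fl, 8.07, 7.91 and 8.20 in Stat3Δhc, 8.78, 8.70 and 8.98 in Stat3Fl/Fl Mdr2-/- and 8.96, 8.82 and 8.36 in Stat3Δhc Mdr2-/- liver. Here too the Mdr2-/- arrays lay above the others. Lum, which encodes lumican, a regulator of fibril diameter, rose 1.48-fold (log2 change 0.56, SE 0.14, adjusted p = 0.0186) and 1.57-fold (log2 change 0.65, SE 0.14, adjusted p = 0.00752). In Stat3Fl/Fl liver the change dropped to 0.20 (adjusted p = 0.786) with the covariate, and the call was lost without Stat3Fl/Fl A or B or Stat3Fl/Fl Mdr2-/- C (adjusted p 0.0501 to 0.0812). Dcn, the genomic neighbour of Lum, encodes decorin and spanned 11.21 to 11.60. It passed in 0 comparisons, with changes of 0.19 (adjusted p = 0.162) and -0.05 (adjusted p = 0.669) for Mdr2 loss.

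Among the matricellular proteins, which modulate cells rather than build fibres, Ccn1 and Ccn2 rose with Mdr2 loss in both backgrounds and Postn fell. The Ccn1 signal was 7.39, 7.49 and 7.47 in Stat3Fl/Fl, 7.72, 7.91 and 7.77 in Stat3Δhc, 8.14, 7.82 and 8.57 in Stat3Fl/Fl Mdr2-/- and 8.22, 8.13 and 8.59 in Stat3Δhc Mdr2-/- liver. The Stat3Fl/Fl arrays were lowest, and the Mdr2-/- arrays of each background lay above their comparison arrays. Ccn1, an immediate early gene for a secreted integrin ligand, rose 1.66-fold in Stat3Fl/Fl liver (log2 change 0.73, SE 0.16, adjusted p = 0.0106) and 1.43-fold in Stat3Δhc liver (log2 change 0.51, SE 0.16, adjusted p = 0.046). The Ccn2 signal was 7.65, 7.66 and 7.54 in Stat3Fl/Fl, 7.58, 7.97 and 7.75 in Stat3Δhc, 8.35, 7.92 and 8.37 in Stat3Fl/Fl Mdr2-/- and 8.26, 8.89 and 8.47 in Stat3Δhc Mdr2-/- liver. In Stat3Fl/Fl and Stat3Δhc liver alike, the knockout arrays lay above their comparison arrays, without overlap. Ccn2, known as connective tissue growth factor, is a target of TGF-beta and YAP. It rose 1.51-fold (log2 change 0.59, SE 0.16, adjusted p = 0.0293) and 1.71-fold (log2 change 0.77, SE 0.16, adjusted p = 0.00657). The Ccn1 call in Stat3Δhc liver was lost without Stat3Δhc A, B or C, Stat3Fl/Fl A, B or C, Stat3Fl/Fl Mdr2-/- A or Stat3Δhc Mdr2-/- A or C (adjusted p 0.0539 to 0.173). With the Xist pattern as a covariate, both Ccn1 calls were lost (adjusted p = 0.287 in Stat3Fl/Fl liver). The Ccn2 call in Stat3Fl/Fl liver was lost without Stat3Fl/Fl A, B or C or Stat3Fl/Fl Mdr2-/- A or C (adjusted p 0.0631 to 0.113), and its change was 1.01 (adjusted p = 0.143) with the Xist covariate.

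The Postn signal was 9.29, 9.59 and 9.45 in Stat3Fl/Fl, 9.03, 8.88 and 9.14 in Stat3Δhc, 8.97, 9.14 and 8.67 in Stat3Fl/Fl Mdr2-/- and 8.22, 8.11 and 7.62 in Stat3Δhc Mdr2-/- liver. The Stat3Δhc Mdr2-/- arrays were the 3 lowest. Postn encodes periostin, a matrix protein of activated fibroblasts that promotes collagen crosslinking. It fell 1.43-fold with Mdr2 loss in Stat3Fl/Fl liver (log2 change -0.52, SE 0.16, adjusted p = 0.0497), 2.05-fold in Stat3Δhc liver (log2 change -1.03, SE 0.16, adjusted p = 0.00105) and 1.92-fold with Stat3 deletion on the knockout (log2 change -0.94, SE 0.16, adjusted p = 0.00632). The first of these calls was lost without Stat3Δhc A, B or C, Stat3Fl/Fl A, B or C, Stat3Fl/Fl Mdr2-/- A or C or Stat3Δhc Mdr2-/- B (adjusted p 0.0567 to 0.192), and its change was -0.87 (adjusted p = 0.224) with the Xist covariate. The other matricellular genes passed in 0 comparisons. Tnc, which encodes tenascin C, had a log2 change of -0.63 with Stat3 deletion without the Mdr2 knockout (adjusted p = 0.082) and Thbs2, an inhibitor of vessel growth, one of -0.44 (adjusted p = 0.0691). Thbs1, whose product can activate latent TGF-beta, had a change of 0.56 with Mdr2 loss in Stat3Δhc liver (adjusted p = 0.0762), and Sparc, a collagen-binding protein, spanned 10.83 to 11.20.

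The crosslinking enzymes and the TGF-beta ligands did not pass in any comparison. The Lox signal was 5.83, 6.04 and 5.97 in Stat3Fl/Fl, 5.99, 5.89 and 6.10 in Stat3Δhc, 5.73, 5.57 and 5.79 in Stat3Fl/Fl Mdr2-/- and 5.92, 6.26 and 5.74 in Stat3Δhc Mdr2-/- liver. Lox encodes lysyl oxidase, which crosslinks collagen and elastin, and its largest change with Mdr2 loss was -0.25 in Stat3Fl/Fl liver (adjusted p = 0.222). Loxl1, its relative in elastic fibres, spanned 6.81 to 7.19. The Tgfb1 signal was 7.32, 7.83 and 7.69 in Stat3Fl/Fl, 7.35, 7.39 and 7.44 in Stat3Δhc, 7.91, 7.97 and 7.88 in Stat3Fl/Fl Mdr2-/- and 7.79, 7.45 and 7.84 in Stat3Δhc Mdr2-/- liver. In both backgrounds the Mdr2-/- arrays lay above their comparison arrays, by a narrow gap in Stat3Δhc liver. The Tgfb1 changes of 0.30 (95% interval 0.02 to 0.59, adjusted p = 0.154) and 0.30 (95% interval 0.02 to 0.58, adjusted p = 0.125) did not pass. The change in Stat3Δhc liver passed without Stat3Δhc Mdr2-/- B (0.42, adjusted p = 0.0489). With Stat3 deletion the Tgfb1 value was -0.22 without the Mdr2 knockout (adjusted p = 0.443) and -0.23 on it (adjusted p = 0.262). The Tgfb2 signal was 5.73, 5.96 and 5.65 in Stat3Fl/Fl, 5.64, 5.67 and 5.60 in Stat3Δhc, 5.73, 5.71 and 5.92 in Stat3Fl/Fl Mdr2-/- and 5.60, 5.91 and 5.85 in Stat3Δhc Mdr2-/- liver. The Tgfb2 groups overlapped in every comparison. The Tgfb3 signal was 6.17, 6.56 and 6.36 in Stat3Fl/Fl, 6.23, 6.29 and 6.23 in Stat3Δhc, 6.13, 5.94 and 6.07 in Stat3Fl/Fl Mdr2-/- and 6.17, 5.92 and 6.38 in Stat3Δhc Mdr2-/- liver. Tgfb3 was lower without overlap in the Stat3Fl/Fl Mdr2-/- arrays than in Stat3Fl/Fl arrays, a change of -0.32 that did not pass (adjusted p = 0.117). Ltbp2, a microfibril protein related to the latent TGF-beta binding proteins, spanned 6.53 to 6.92.

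Among receptors, SMADs and activators of TGF-beta, 22 of 23 listed genes were tested. With Mdr2 loss in Stat3Fl/Fl liver 5 rose and 0 fell (22.7% called, against 12.8% of all tested genes). With the log2 change in parentheses here and for the lists that follow, they were the receptors Tgfbr1 (0.62, adjusted p = 0.00649) and Tgfbr2 (0.43, adjusted p = 0.00825), the activating integrin chains Itgb8 (0.52, adjusted p = 0.0276) and Itgav (0.33, adjusted p = 0.0405), and the SMAD repressor Skil (0.34, adjusted p = 0.0426). In Stat3Δhc liver 4 rose and 3 fell (31.8%, against 17.4%), among them Tgfbr2 (0.54, adjusted p = 0.00193), Itgb8 (0.70, adjusted p = 0.00493), the protease Furin (0.40, adjusted p = 0.0262) and, lower, the latent TGF-beta binding protein Ltbp4 (-0.59, adjusted p = 0.00095). Stat3 deletion on the knockout lowered 3 (13.6%, against 5.77%), Ltbp4 (-0.43, adjusted p = 0.0162), Skil (-0.49, adjusted p = 0.017) and the SMAD ubiquitin ligase Smurf2 (-0.42, adjusted p = 0.0286), and raised 0. Without the knockout it changed 0 of 22 past the test (against 2.58% of all tested genes). The median log2 changes of these 22 genes were 0.10, 0.01, -0.05 and -0.16 in the 4 comparisons, in the order Mdr2 loss in Stat3Fl/Fl and Stat3Δhc liver, then Stat3 deletion without and with the Mdr2 knockout.

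Of 10 tested TGF-beta target genes (12 listed), 2 rose and 2 fell with Mdr2 loss in Stat3Fl/Fl liver (40% called, against 12.8% of all tested genes), and 3 rose and 1 fell in Stat3Δhc liver (40%, against 17.4%). Timp1, an inhibitor of matrix metalloproteinases, rose most, by 1.74 (adjusted p = 0.0015) and 1.79 (adjusted p = 0.00107) on the log2 scale. Tgif1, a SMAD corepressor, rose in both (0.62, adjusted p = 0.00492 and 0.48, adjusted p = 0.017). Id1 (-0.68, adjusted p = 0.00335) and Id2 (-0.62, adjusted p = 0.0355) fell in Stat3Fl/Fl liver and Id3 (-0.55, adjusted p = 0.0126) in Stat3Δhc liver. These are inhibitors of DNA binding that also respond to bone morphogenetic proteins. Junb (0.41, adjusted p = 0.0357) was the other riser in Stat3Δhc liver. Stat3 deletion changed 0 of the 10 past the test in either background (2.58% of all tested genes without the knockout and 5.77% on it).

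Of 18 tested genes of collagen folding and trimming (21 listed), 4 were called with Mdr2 loss in Stat3Fl/Fl liver (22.2%, against 12.8% of all tested genes). The collagen chaperone Serpinh1 (-0.50, adjusted p = 0.00526) and the folding enzyme Ppib (-0.44, adjusted p = 0.00256) fell, and the prolyl hydroxylases P3h2 (0.62, adjusted p = 0.0191) and P4ha2 (0.42, adjusted p = 0.0485) rose. In Stat3Δhc liver 1 rose, the procollagen peptidase Adamts14 (0.35, adjusted p = 0.021), and 0 fell (5.56%, against 17.4%). Of the 5 fibrillar collagen chains, 4 rose in that comparison (80%, against 6.9% of all tested genes higher). Stat3 deletion changed 0 of 18 past the test in either background (2.58% of all tested genes without the knockout and 5.77% on it).

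Of 6 genes of platelet derived growth factors, mitogens of stellate cells, and their receptors, 3 rose with Mdr2 loss in Stat3Fl/Fl liver (50%, against 7.12% of all tested genes higher), Pdgfc (1.10, adjusted p = 4.24e-05), Pdgfa (0.53, adjusted p = 0.00465) and the receptor Pdgfra (0.47, adjusted p = 0.0392). In Stat3Δhc liver 2 of 6 rose (33.3%, against 6.9% higher), the receptor Pdgfrb (0.45, adjusted p = 0.00486) and Pdgfa (0.40, adjusted p = 0.0179), and Pdgfc was lower with Stat3 deletion on the knockout (-0.60, adjusted p = 0.00903). Of 15 matrix receptor genes, Cd44, the hyaluronan receptor, was the 1 called in Stat3Fl/Fl liver (0.59, adjusted p = 0.038; 6.67%, against 12.8%). In Stat3Δhc liver 3 rose and 3 fell (40%, against 17.4%), where Ddr1 (0.61, adjusted p = 0.0168) and Itga2 (0.55, adjusted p = 0.0154), both collagen receptors, rose, and Itgb3 (-0.62, adjusted p = 0.00459) and Sdc1 (-0.49, adjusted p = 0.00961) fell. Itga6, a laminin receptor chain, fell with Stat3 deletion without the knockout (-1.11, adjusted p = 0.00686) and on it (-1.51, adjusted p = 0.000946), the latter with Itgb3 (-0.89, adjusted p = 0.00254) and Itga9 (-0.44, adjusted p = 0.0162), 3 of 15 (20%, against 5.77%).

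**Figure D4:**
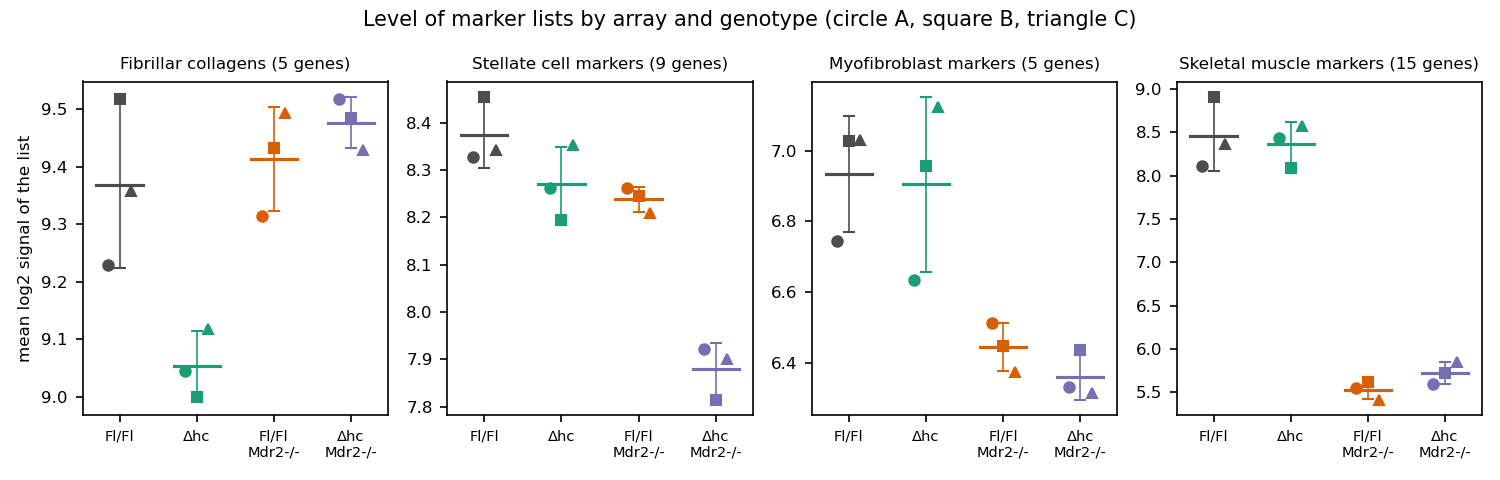
Mean log2 signal over the genes of a list in each of the 12 arrays, for fibrillar collagens and 3 marker lists, with the 4 genotypes on the x axis, a point per array, a horizontal bar at the mean and a vertical bar for the SD of the 3 arrays. Skeletal muscle markers separate the arrays with and without the Mdr2 knockout, and the stellate cell markers are lowest in the 3 Stat3Δhc Mdr2-/- arrays (7.81 to 7.92). The stellate cell list includes Des, which is also a gene of skeletal muscle.

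Of 9 stellate cell markers, 1 rose and 4 fell with Mdr2 loss in Stat3Δhc liver (55.6% called, against 17.4% of all tested genes). Pdgfrb, which is also in the growth factor list, was the riser, and Des (-1.61, adjusted p = 4.26e-05), Lrat (-0.83, adjusted p = 0.00221), Rgs5 (-0.92, adjusted p = 0.0109) and Reln (-0.31, adjusted p = 0.0279) fell. Stat3 deletion on the knockout lowered 4 (44.4%, against 5.77%), Reln (-0.58, adjusted p = 0.00366), Lrat (-0.93, adjusted p = 0.00426), Rgs5 (-0.93, adjusted p = 0.024) and Colec11 (-0.30, adjusted p = 0.0474). The mean of the 9 includes Des, which fell with Mdr2 loss in both backgrounds, as did the skeletal muscle markers. Over the 9, the median log2 change with Mdr2 loss was 0.02 in Stat3Fl/Fl and -0.08 in Stat3Δhc liver. Per array, the mean ran from 8.33 to 8.46 in Stat3Fl/Fl and 8.19 to 8.35 in Stat3Δhc liver. With the knockout it ran from 8.21 to 8.26 in Stat3Fl/Fl Mdr2-/- and 7.81 to 7.92 in Stat3Δhc Mdr2-/- liver. The last of these genotypes also had the lowest means of Ecm1, Postn, Fn1, Eln, Lamc1 and Efemp1. The part of the stellate cell markers in those values was not tested. In Stat3Fl/Fl liver 1 of 9 passed, Des (-1.60, adjusted p = 4.71e-05; 11.1%, against 12.8%), and Des is also a gene of skeletal muscle.

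Of 4 tested markers of myofibroblasts and smooth muscle, 3 fell with Mdr2 loss in each background (75%, against 12.8% and 17.4% of all tested genes). In Stat3Δhc liver these were Acta2 (-1.15, adjusted p = 0.00113), Myh11 (-0.93, adjusted p = 0.00424) and Actg2 (-0.45, adjusted p = 0.0254). Tagln had positive values that did not pass (0.16, adjusted p = 0.602 in Stat3Fl/Fl and 0.09, adjusted p = 0.711 in Stat3Δhc liver). In Stat3Fl/Fl arrays A, B and C, Acta2 was 8.43, 9.03 and 8.99, and exocrine pancreas markers averaged 5.63, 9.30 and 7.57. In Stat3Δhc arrays A, B and C, Acta2 was 8.21, 8.53 and 8.87, and pancreas markers averaged 5.89, 8.34 and 10.29. The part of other tissue in the falls of Acta2, Myh11 and Actg2 was not tested. The 5 portal fibroblast markers passed in 0 comparisons (against 0.0715% to 17.4% of all tested genes, by comparison). Their mean was 6.67 to 6.87, 6.55 to 6.69, 6.57 to 6.75 and 6.57 to 6.87 in the 4 genotypes in the same order. In Stat3Δhc liver Mdr2 loss also lowered the endothelial genes Kdr (-0.63, adjusted p = 0.00129), Tek (-0.46, adjusted p = 0.0109) and Lyve1 (-0.63, adjusted p = 0.0418), 3 of 8 (37.5%, against 10.5% of all tested genes lower). The mesothelial gene Gpm6a fell there too (-0.91, adjusted p = 0.00105), 1 of 5 (20%, against 17.4% of all tested genes called). The endothelial gene Stab2 rose in Stat3Fl/Fl liver (0.44, adjusted p = 0.0131), 1 of 8 (12.5%, against 12.8% called). Gpm6a also fell with Stat3 deletion on the knockout (-0.69, adjusted p = 0.0161), 1 of 5 (20%, against 5.77% called). The Kupffer cell genes Csf1r (-0.54, adjusted p = 0.0228) and Adgre1 (-0.56, adjusted p = 0.0461), 2 of 5 (40%, against 5.77% called), fell with Stat3 deletion on the knockout. Of 4 tested bile duct markers, Krt19 (-0.72, adjusted p = 0.0186) fell with Mdr2 loss in Stat3Δhc liver (25%, against 17.4% called). The hepatocyte markers averaged 12.86 to 13.14, 13.21 to 13.26, 12.90 to 13.03 and 12.97 to 13.14. Of these 6 markers, Serpina1c fell with Mdr2 loss in Stat3Fl/Fl liver (-0.35, adjusted p = 0.0479), 16.7% against 12.8% called. Serpina1c (-0.73, adjusted p = 0.000842) and Ttr (-0.36, adjusted p = 0.0128) fell in Stat3Δhc liver, 33.3% against 17.4%. Cps1 rose with Stat3 deletion without the knockout (0.44, adjusted p = 0.0495), 16.7% against 2.58%. Among 8 tested exocrine pancreas markers, Cela1 fell with Mdr2 loss in Stat3Δhc liver (-2.25, adjusted p = 0.0484), 12.5% against 17.4% called.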

How the data were processed

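Total RNA of whole liver from mice aged 2 weeks was hybridised to 12 arrays, 3 per genotype. Groups came from the titles, which the Stat3 signal followed; the source names exchange the 2 Mdr2-/- genotypes. The deposited values are log2 signals that the authors computed with RMA (per the submitters' processing notes, without a version). The annotation build is not given in the sources used here. Where a gene had several transcript clusters naming it alone, the cluster of highest mean was taken. Genes entered the test if 3 or more arrays placed them above the 40th percentile. The 5 comparisons were fitted with limma 3.58.1 (R 4.3.3; lmFit and eBayes, 12 arrays, 8 residual degrees of freedom), two-sided, with Benjamini-Hochberg adjustment at 0.05 over 13977 genes. Precision is limited by 3 arrays per genotype: standard errors had a median of 0.11 in a comparison and 0.155 in the difference. The procedure was tested on simulated data.

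The members, the other gene lists and the alternatives were chosen with earlier results of these data known. The rule for named genes was to print all arrays for every member called in at least 1 comparison and for Col1a1, Col1a2, Col3a1, Tgfb1, Tgfb2, Tgfb3, Ccn2, Lox and Fn1, and up to 4 passing genes of lowest p per other list and comparison. Alternatives were other filters, scalings, variance models and array weights, the mean of a gene's clusters, only the compared groups, a letter block, the Xist pattern as a covariate and leaving out each array. Promoters and neighbouring genes came from RefSeq (GRCm38.p6). Figures used matplotlib 3.10.9 in Python 3.11.15.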

Additional observations from a re-analysis of the deposited data

Results flagged for a closer look

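For 2 of the 38 measured members, the effect of Stat3 deletion differed between the Mdr2 backgrounds by a test of the difference itself. Ecm1 had a log2 change of 0.18 with Stat3 deletion without the Mdr2 knockout and of -1.17 on it, a difference of -1.35 (SE 0.20, limma adjusted p = 0.038). Efemp1 rose by 0.47 and fell, at -0.41, a difference of -0.88 (SE 0.13, adjusted p = 0.038). Both differences kept their sign when any 1 array was left out, and both calls were lost without each of 7 arrays (adjusted p 0.0697 to 0.11). With the Xist pattern as a covariate they were -1.23 (adjusted p = 0.143) and -0.91 (adjusted p = 0.0954).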

How the results depend on the processing

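Of 37 calls of a member in a comparison, 37 kept their sign and 10 kept their call under each of the 22 alternatives (21 for the difference of the effects). Calls lost numbered 0 under the 60th percentile filter, the mean of clusters, array weights, and trend and robust eBayes, 3 under cyclic loess, 3 under median centring, 5 with no filter, 10 of 35 with only the compared groups and 21 with the Xist covariate. Without 1 array each, member counts ran from 5 to 10 for Mdr2 loss in Stat3Fl/Fl liver, 11 to 15 in Stat3Δhc liver, 0 to 8 for Stat3 deletion without the Mdr2 knockout, 4 to 7 on it and 0 to 3 for the difference. The Xist covariate gave 0 for Mdr2 loss in Stat3Fl/Fl liver, 0 for Stat3 deletion on the knockout and 0 for the difference. Only the compared groups gave 2 for Stat3 deletion without the knockout. Array weights gave 26 for Mdr2 loss in Stat3Δhc liver (41.7% of all tested genes called), 21 for Stat3 deletion without the knockout (21.1%), 12 on it (16.4%) and 6 for the difference (4.06%), where Stat3Δhc A alone had a weight of 9.01. The cause of these moves was not tested. The letters were not taken as pairs: after centring within genotype, 4 of 18 same-letter pairs correlated above 0.1 (range -0.41 to 0.37). Values centred on 3 arrays are tied to each other, so this check cannot exclude pairing. With the letter as a replicate block, 2 members were called for Stat3 deletion without the knockout and 1 for the difference, and 29 of the 37 calls remained. With 3 arrays per genotype, changes of several standard errors could fail the test over all genes. The Col1a1 difference of 0.78 (SE 0.17, limma adjusted p = 0.111) did not pass. Nor did the Col14a1 change of -0.45 with Stat3 deletion without the Mdr2 knockout (SE 0.11, adjusted p = 0.0526). A member that was not called is therefore not shown to be unchanged.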
